A study of Mus musculus with 6 samples.

Results

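The nuclear genes for the subunits of oxidative phosphorylation were followed in mouse ES cells that had received the miRNA miR-294 or a control miRNA. Members were chosen by the gene name on the array, which had to begin as the genes of complex I (Nduf followed by a, b, c, s or v), complex III (Uqcr), complex IV (Cox4 to Cox8) or complex V (Atp5) do, or be Sdha, Sdhb, Sdhc, Sdhd, Cyc1 or Cycs. Of 45281 probes on the array, 123 probes for 83 genes matched, and 99 of them, for 74 genes, were among the 14621 probes that could be tested. By complex, 54 of the 123 probes belonged to complex I, 8 to complex II, 9 to complex III, 24 to complex IV and 25 to complex V, and 3 to cytochrome c. The name also let in 5 tested genes, with 6 probes, that do not encode subunits. They are Ndufaf1 and Ndufa12l (now Ndufaf2), which help to assemble complex I, Cox4nb (now Emc8), Atp5s (now Dmac2l) and Atp5sl (now Dmac2).

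The respiratory chain of the inner mitochondrial membrane passes electrons from NADH (complex I) or succinate (complex II) through complex III and cytochrome c to oxygen (complex IV), and complex V uses the resulting proton gradient to make ATP. Most subunits are encoded in the nucleus and imported, and a small set is encoded by mitochondrial DNA. ES cells are known for a high rate of glycolysis beside mitochondrial respiration.

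The cells were Ago2Δ/Δ;Dicer1Δ/Δ ES cells of strain 129/SvEv with a transgenic, myc-tagged Ago2, so that both groups lacked mature miRNAs of their own and carried the same Argonaute. One group of 3 samples received the miR-294 mimic and the other group of 3 received cel-239b, a worm miRNA with little resemblance to those of the mouse. Each sample received 300 pmol of miRNA together with 1 µg of the GFP plasmid pEGFP-1, and GFP-positive cells were sorted after 24 hr from cultures kept in LIF without feeder cells. The 3 samples of a group were separate transfections, and *p*-values measure the spread among them. The miRNA is shown because it is the agent tested, and its seed is the part known to pair with target mRNAs. The mature sequences of miR-294 and of 2 relatives from its cluster follow from RefSeq (GRCm38.p6), 5′ to 3′, with the shared seed (bases 2 to 8) in capitals. The mature miR-294 lies on the forward strand at chr7:3220691-3220712.
mmu-miR-294-3p: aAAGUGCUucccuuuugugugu
mmu-miR-291a-3p: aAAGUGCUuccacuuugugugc
mmu-miR-295-3p: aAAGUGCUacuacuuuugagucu

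The median probe of every array was read by 44 beads, 30.6% to 32.9% of probes were detected, and 98 or 99 of the 123 member probes were detected on each array. ES cell markers were present, with 11 of 11 on the array (Pou5f1, Nanog and Sox2 among them) detected on all 6 arrays. Of 7 fibroblast markers, 5 were detected on no array (Col1a1, Col1a2, Col3a1, Lum and Postn) and 2, Dcn and Thy1, on some arrays. Of 7 primitive endoderm markers only Sox7 was detected. Of 6 mesoderm and neural markers, Mixl1, Pax6 and Sox1 were detected on no array, and Eomes, Nes and T were detected, 2 of them on all 6 arrays. Whether cells of these kinds had a part in the results was not tested.

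Oxidative phosphorylation genes changed little, and more of their probes were lower than higher with miR-294. Signals were background corrected, quantile normalised and put on the log2 scale and a log fold change is the miR-294 mean less the cel-239b mean. A probe was called when its adjusted *p*-value, from limma with Benjamini-Hochberg adjustment over all 14621 tested probes, was below 0.05. Of the 99 member probes, 5 rose (5.05%), 11 fell (11.1%) and 83 were not called. Over all tested probes 16% rose and 16.3% fell. The members are bright probes, with a median position at percentile 91.1 of mean signal. In the brightest 25% of tested probes 15.6% rose and 15.6% fell, against 3 and 9 of the 73 members found there. The study used a stricter cut-off, a *B*-statistic (log odds of differential expression) above 5. With limma and the processing used here, no member passed it. Of all tested probes 1.47% passed in either direction, and of the 3656 in the brightest 25%, 8 passed higher and 21 lower. At shares this low, a count of 0 among 99 probes does not set the members apart. The study processed its arrays in its own way, so its *B* values can differ from these. Without adjustment, 6 members (6.06%) were higher and 21 (21.2%) lower at *p* below 0.05, against 22.7% and 21.6% of all tested probes.

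The median log fold change of the 99 probes was -0.05, against 0.01 for all tested probes, and became -0.01 under median scaling. On a per-array view, the median member lay 0.03, 0.03 and 0.04 above its own mean over the 6 arrays on the 3 cel-239b arrays, and 0.02, 0.02 and 0.03 below it on the 3 miR-294 arrays. These medians did not overlap between the groups. In all, 66 of the 99 log fold changes (66.7%) were below 0, compared with 48.2% over all tested probes. The groups did not overlap for 41 members, 8 with all miR-294 arrays higher and 33 with all of them lower. Over all tested probes the corresponding shares were 24.3% and 23.6%. In RNA from whole cell populations, fewer cells of a kind and less RNA per cell cannot be told apart.

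**Figure D1:**
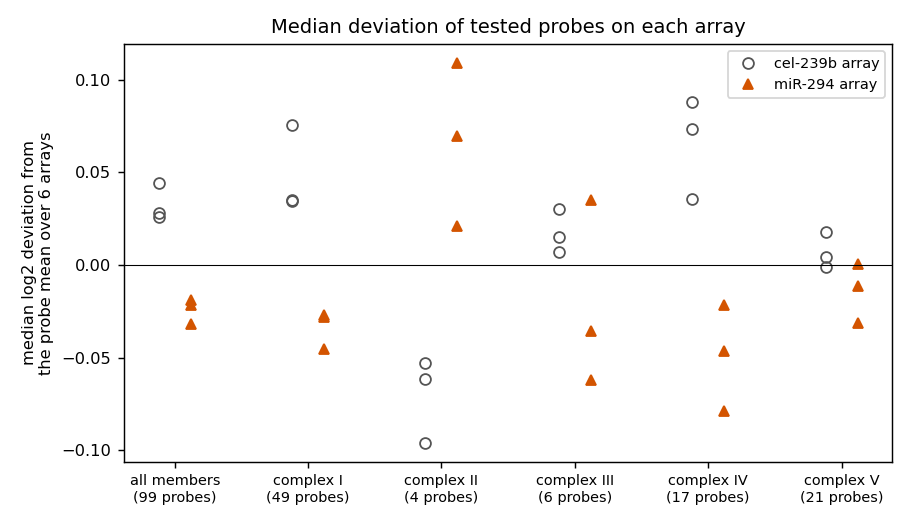
Median deviation of the tested probes from their own mean over the 6 arrays (vertical axis, log2), for all 99 members and for complexes I to V. Each symbol is 1 array (open circles cel-239b, triangles miR-294). For complex II the miR-294 arrays lie above the cel-239b arrays, for all members and complexes I and IV they lie below, and for complexes III and V the groups overlap.

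The spread of the members was narrow. Their log fold changes ran from -0.53 to 0.31, with an interquartile range of 0.18, compared with 0.33 for all tested probes and 0.25 for the brightest 25%. The members in the brightest 25% had a median percentile of mean signal of 93.9, against 87.5 for all probes there. Brightness is thus not fully matched in this comparison. Only 1 member (1.01%) exceeded 0.5 in size, compared with 9.6% of all tested probes. For 94 of the 99 members (94.9%) the whole 95% interval of the log fold change lay within 0.5 of 0. That was so for 72.0% of all tested probes and 87.3% of the brightest 25%. All 73 members in the brightest 25% met this bound, as did the brightest probe of each of the 74 genes. The limit of 0.5 was chosen after the values were seen.

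**Figure D2:**
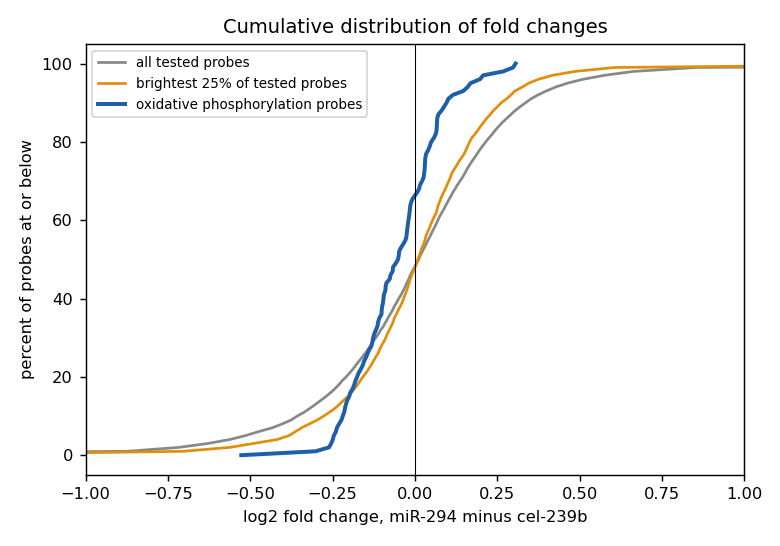
Cumulative share of probes (vertical axis, percent) at or below a given log fold change (horizontal axis, log2, miR-294 less cel-239b). The members (median -0.05) form the steepest of the 3 curves. Around the median it lies to the left of those of all 14621 tested probes (median 0.01) and of their brightest 25% (median 0.01), which it crosses further down and which run on past the axis limits.

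The number of calls depended on the processing and on single arrays. With median scaling in place of quantile normalization, no member rose and 1 fell, the dimmer Ndufa5 probe, while 10.72% and 13.54% of all tested probes rose and fell. With a variance-stabilizing transformation, 27 of the 99 members fell, and thus a larger share than the 17.09% of all tested probes that fell, whereas in the fit described above the members' share lay below that of all tested probes. Without replicates 1, 2 or 3 of cel-239b, the members called were 2 higher and 10 lower, 3 and 3, and 3 and 4. The shares of all tested probes called higher and lower in these fits were 16.94% and 15.86%, 11.06% and 11.07%, and 10.93% and 11.48%. Without replicates 1, 2 or 3 of miR-294, they were 2 higher and 7 lower, 3 and 5, and 3 and 6, and the shares of all tested probes were 10.13% and 13.05%, 11.26% and 12.94%, and 11.9% and 13.34%.

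**Figure D3:**
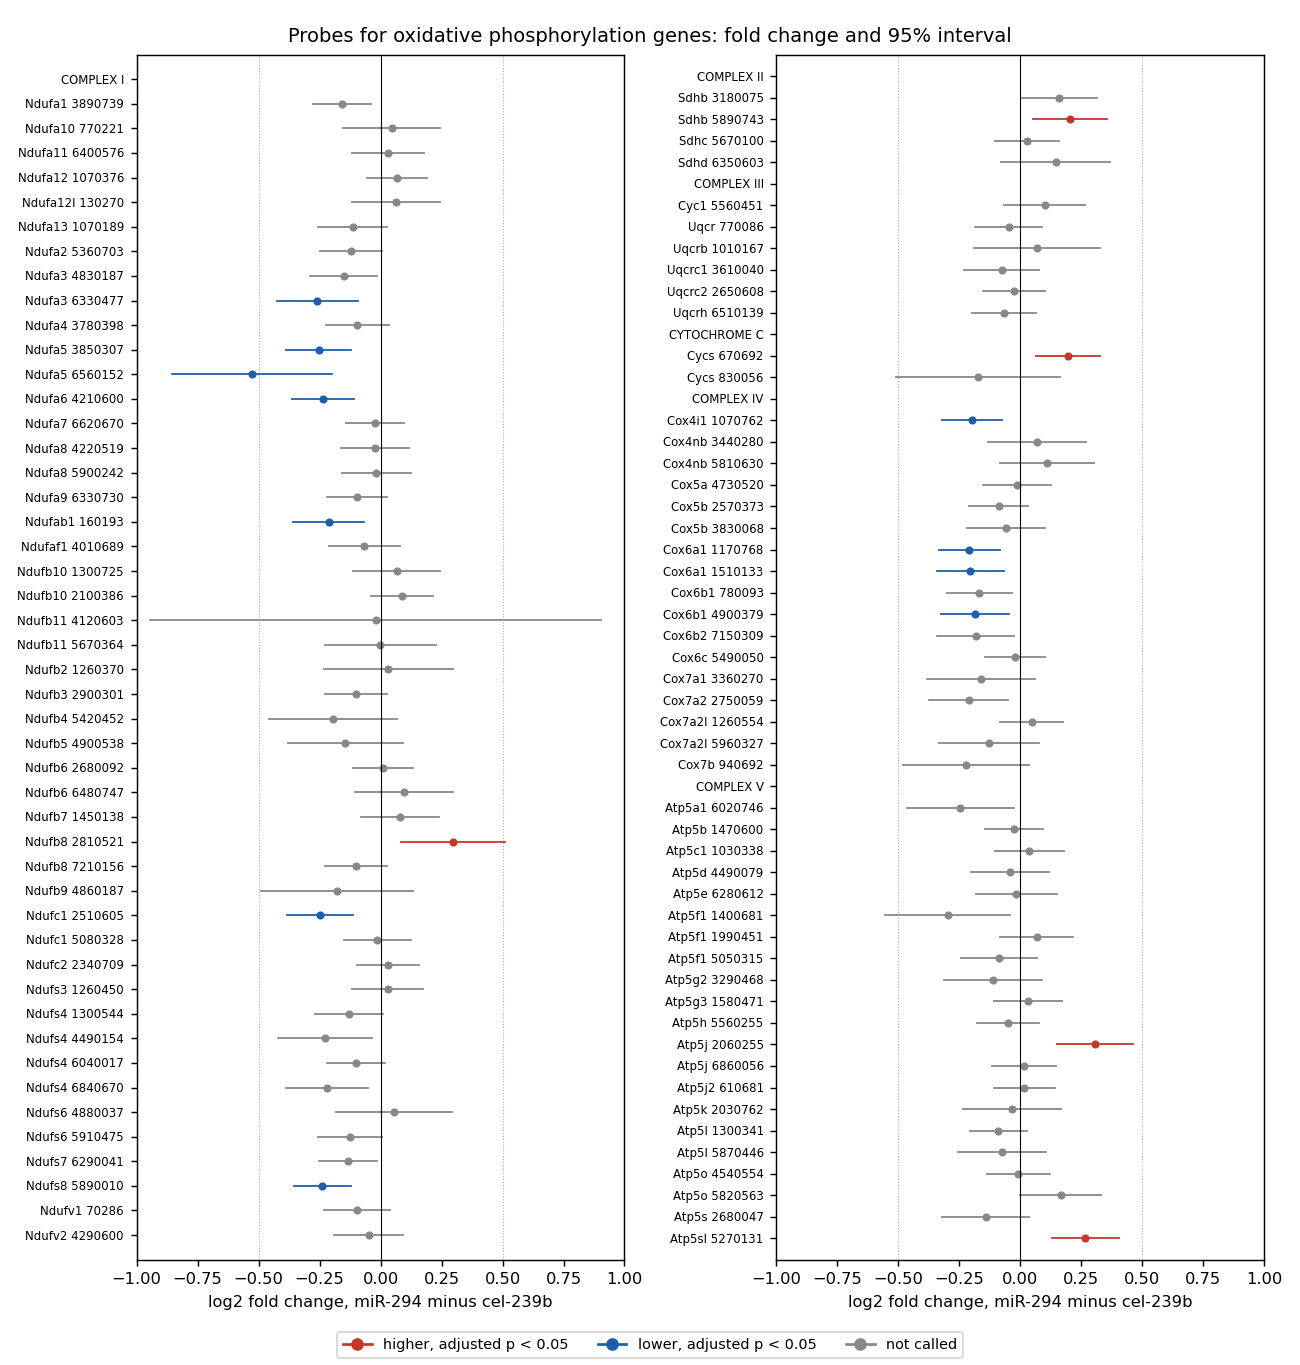
Log fold change (horizontal axis, log2, miR-294 less cel-239b) and 95% interval of 97 of the 99 tested member probes, by complex, labelled with gene and probe number. Blue probes fell and red probes rose at an adjusted *p*-value below 0.05; dotted lines mark 0.5 on either side of 0. Of the 11 probes that fell, 7 are in complex I and 4 in complex IV.

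Complex I, the NADH dehydrogenase, held 49 of the tested probes for 36 genes. Of these probes, 7 fell (14.3%, against 16.3% of all tested probes) and 1 rose (2.04%, against 16%). The median log fold change of the complex was -0.10, which became -0.03 under median scaling, and 34 of the 49 were below 0. The 7 nuclear-encoded core subunits, which hold the sites of electron transfer, were covered by 7 tested probes for 6 genes, and 1 fell. Of the 40 probes for supernumerary subunits, 6 fell (15.0%) and 1 rose (2.5%), with medians of -0.10 in both classes.

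The core subunit that fell was Ndufs8, an iron-sulphur protein. It measured 12.11, 12.11 and 12.08 on the cel-239b arrays and 11.87, 11.87 and 11.85 on the miR-294 arrays on the log2 scale. The arrays of each group were close together, and the groups were well apart. Signal fell by 15.3%. In log2 units Ndufs8 fell by 0.24 (standard error 0.05, adjusted *p* = 0.0109 from limma) and had the lowest adjusted *p*-value of any member. It was called in each of the 6 fits without a single array, but not under median scaling, where the log fold change was -0.16 (adjusted *p* = 0.237). Other core subunits were not called. The log fold change was -0.13 for Ndufs7, -0.10 for Ndufv1, which binds NADH and the flavin, -0.05 for Ndufv2 and 0.03 for Ndufs3. Ndufs1, the largest core subunit, was not detected on any array and is not assessed.

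Ndufa5, a supernumerary subunit of the matrix arm, was lower by both of its probes. Probe 3850307 measured 11.73, 11.72 and 11.74 with cel-239b and 11.50, 11.41 and 11.53 with miR-294. Probe 6560152 was dimmer, at 8.81, 9.01 and 9.08 with cel-239b and 8.14, 8.65 and 8.54 with miR-294. The groups did not overlap on either probe, but the dimmer one was more scattered, with miR-294 replicate 1 farthest from the control. The bright probe fell by 0.25 (standard error 0.06, adjusted *p* = 0.014 from limma). The dim probe fell by 0.53 (standard error 0.14, adjusted *p* = 0.0259 from limma), the largest change of any member, and without single arrays it ranged from -0.63 to -0.37, the latter without miR-294 replicate 1.

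The other complex I probes that fell were for Ndufa3, Ndufc1, Ndufa6 and Ndufab1. Ndufa6, a subunit of the matrix arm, measured 11.68, 11.73 and 11.76 with cel-239b and 11.50, 11.46 and 11.50 with miR-294, and fell by 0.24 (adjusted *p* = 0.0149). Ndufa3, a small membrane-arm subunit, fell by 0.26 on probe 6330477 (adjusted *p* = 0.0289), from 11.99, 12.11 and 12.03 to 11.90, 11.71 and 11.75. These changes exceeded the spread of either group, although for Ndufa3 the nearest arrays of the groups, at 11.99 and 11.90, were close. The second Ndufa3 probe was at -0.15 and missed the threshold (adjusted *p* = 0.0856). Without single arrays, Ndufa3 probe 6330477 was called again in 2 of 6 fits and the Ndufa6 probe in 4.

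Ndufc1, another small membrane-arm subunit, gave different results on its 2 probes. Probe 2510605 measured from 11.95 to 12.07 on the cel-239b arrays and 11.74, 11.80 and 11.74 on the miR-294 arrays, and fell by 0.25 (adjusted *p* = 0.0161). Probe 5080328 was at -0.01, with overlapping groups and a 95% interval from -0.15 to 0.12. Ndufab1, the mitochondrial acyl carrier protein, which also serves fatty acid and lipoic acid synthesis, had a dim probe that read 6.28, 6.42 and 6.31 with cel-239b and 6.07, 6.15 and 6.15 with miR-294. It fell by 0.21 (adjusted *p* = 0.0345), and over 9 other settings it ran from -0.24 to -0.05 and was called in 5.

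Ndufb8, a membrane-arm subunit, was the only complex I gene with a probe that rose. Its dim probe 2810521 measured 6.07, 6.33 and 6.24 with cel-239b and 6.57, 6.37 and 6.59 with miR-294, a rise of 0.30 (adjusted *p* = 0.042). The bright probe 7210156 read 13.13, 13.06 and 13.10 against 12.97, 12.99 and 13.03, a log fold change of -0.10 (adjusted *p* = 0.195). The 2 probes of Ndufb8 thus separated the groups in opposite directions, and the rise of the dim probe was called in 5 of 9 other settings, with values from 0.07 to 0.30.

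Other complex I probes were not called. Ndufa1, a membrane-arm subunit encoded on the X chromosome, was at -0.16 (adjusted *p* = 0.0505), with 12.68, 12.67 and 12.67 against 12.50, 12.54 and 12.50. Ndufs4, an accessory subunit of the matrix arm, had 4 probes, at -0.23, -0.22, -0.13 and -0.10 (adjusted *p* = 0.0697, 0.0537, 0.142 and 0.165 from limma), all with the miR-294 arrays below the cel-239b arrays. Ndufa4, named for complex I but now counted with complex IV, was at -0.10. The 2 probes of Ndufb11 were the only tested members not detected on all 6 arrays, and the interval of one ran from -0.94 to 0.91, so that only a large change could have been seen there.

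Complex II, succinate dehydrogenase, was the only complex whose tested probes were all above 0, at 4 of 4 for 3 genes, with a median of 0.15, which became 0.07 with no detection filter, and 1 rise (25%, against 16% of all tested probes). Sdhb, the iron-sulphur subunit, measured 10.25, 10.23 and 10.32 with cel-239b and 10.52, 10.52 and 10.38 with miR-294 on probe 5890743. It rose by 0.20 (standard error 0.06, adjusted *p* = 0.0468), close to the threshold, and was called in 3 of 9 other settings. Its second probe read 10.63, 10.48 and 10.56 against 10.79, 10.71 and 10.65, a value of 0.16 that was not called (adjusted *p* = 0.104), with groups that also did not overlap. The membrane anchors Sdhc and Sdhd were at 0.03 and 0.14, and their groups overlapped. Sdha, the flavin-bearing catalytic subunit, was below detection on both of its probes, so complex II is described by 3 of its 4 genes.

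Complex III, the cytochrome bc1 complex, showed no change that limma called. None of its 6 probes passed, adjusted or unadjusted, and in all 6 the groups overlapped. Of all tested probes, 16% rose and 16.3% fell, or 22.7% and 21.6% without adjustment. Over the same probes the groups did not overlap for 24.3% with miR-294 higher and 23.6% with miR-294 lower. The log fold changes of the 6 complex III probes ran from -0.08 for Uqcrc1, a core protein, to 0.10 for Cyc1, cytochrome c1, which hands electrons to cytochrome c. Uqcrc1 measured 12.20, 12.25 and 12.10 with cel-239b and 12.18, 12.07 and 12.07 with miR-294. The 95% intervals were -0.23 to 0.08 for Uqcrc1 and -0.06 to 0.26 for Cyc1. The median of the complex was -0.04 and changed sign to 0.02 under median scaling. The Rieske protein Uqcrfs1 and the small subunit Uqcrq were below detection.

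Cytochrome c itself, the mobile carrier between complexes III and IV and a trigger of apoptosis once in the cytosol, rose on the brighter of its 2 tested probes for Cycs. Probe 670692 measured 11.39, 11.33 and 11.44 with cel-239b and 11.57, 11.61 and 11.57 with miR-294, a rise of 0.20 or 14.6% (standard error 0.06, adjusted *p* = 0.0334 from limma). The 3 miR-294 arrays all lay above the 3 controls. Probe 830056 was dim and scattered, at 7.08, 7.18 and 7.44 against 6.77, 7.19 and 7.23, a value of -0.17 with a 95% interval from -0.51 to 0.16. The rise of the bright probe was called in 7 of 9 other settings but in only 1 of the 6 fits without a single array, with values of 0.17 to 0.23 there.

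Complex IV, cytochrome c oxidase, had a median of -0.16. Of its 17 tested probes for 12 genes, 14 were below 0, 4 fell (23.5%, against 16.3% of all tested probes) and none rose by either adjusted or unadjusted *p*-value in limma. Without adjustment, 7 were lower at *p* below 0.05 (41.2%), against 21.6% of all tested probes lower and 22.7% higher. Of the 3 above 0, 2 were the Cox4nb probes, which are not for a subunit. The median was -0.13 under median scaling, -0.09 with the variance-stabilizing transformation and -0.08 with no detection filter, and without single arrays it ran from -0.18 to -0.11.

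The probes that fell were for Cox4i1, Cox6a1 and Cox6b1, all bright. Cox4i1, the common form of the largest nuclear-encoded subunit, measured 14.06, 14.08 and 14.04 with cel-239b and 13.84, 13.84 and 13.90 with miR-294, and fell by 0.20 or 12.8% (standard error 0.05, adjusted *p* = 0.0255 from limma). Cox6a1, the common form of subunit 6a, was lower on both probes. On probe 1170768 it went from 12.99, 12.97 and 12.94 to 12.81, 12.74 and 12.72, a fall of 0.21 (adjusted *p* = 0.0245). The second Cox6a1 probe went from 13.58, 13.56 and 13.47 to 13.37, 13.32 and 13.30 and fell by 0.20 (adjusted *p* = 0.0334). Every miR-294 array lay below every cel-239b array on both.

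Cox6b1, a subunit of the intermembrane face, was near the threshold on its 2 probes. Probe 4900379 measured 13.48, 13.53 and 13.44 with cel-239b and 13.37, 13.27 and 13.25 with miR-294, and fell by 0.19 (adjusted *p* = 0.0491). Probe 780093 was at -0.17 and just missed the call (adjusted *p* = 0.0577). Without single arrays, the called probes of these 3 complex IV genes were called again in at most 2 of 6 fits, and their directions did not change.

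Several complex IV genes have forms known from muscle, lung or testis. The single probes for some of these were below detection, namely Cox4i2, Cox6a2, Cox8b, Cox7b2 and Cox8c, whose deposited signals lay between 50.9 and 86.8 against array medians of 62.2 to 72.4. A probe below detection does not show that its gene is silent, since Cox5b had such a probe beside 2 bright ones. The probe for Cox7a1, a form of heart and muscle, and 1 of the 2 probes for Cox6b2, a testis form, were detected on all 6 arrays, at log fold changes of -0.16 and -0.18 that were not called. Cox7a2, the common form of 7a, was at -0.21 (adjusted *p* = 0.0535), with 9.69, 9.72 and 9.81 against 9.42, 9.56 and 9.61. Cox7b, at -0.22, had overlapping groups. By contrast Cox5a, Cox5b and Cox6c, also common and bright, lay between -0.09 and -0.01, and the 2 probes for Cox7a2l, which joins complexes into supercomplexes, were at 0.05 and -0.13.

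**Figure D4:**
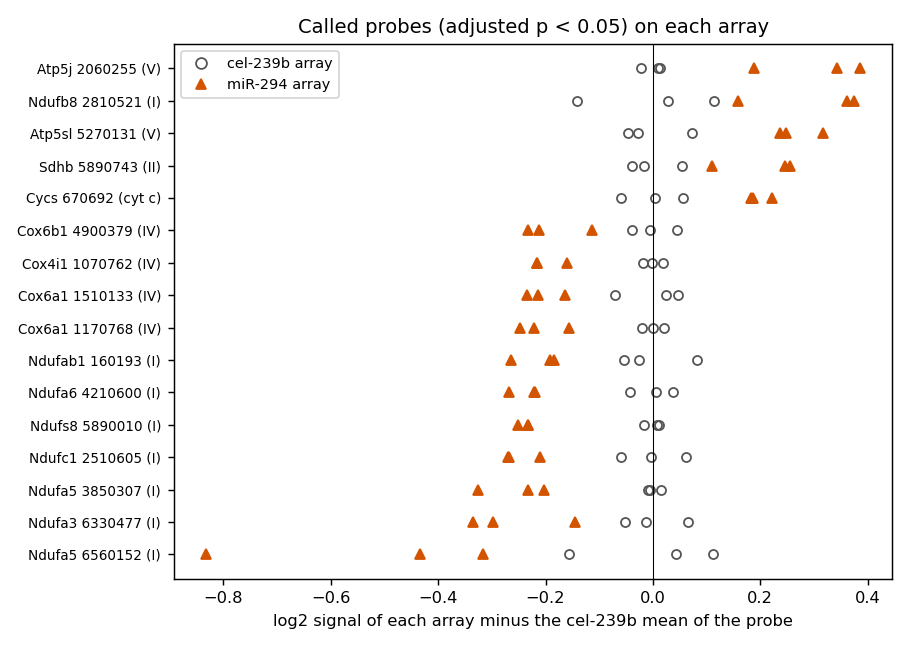
Each of the 16 called member probes on each of the 6 arrays, as log2 signal minus the cel-239b mean of that probe (horizontal axis); circles are cel-239b arrays and triangles miR-294 arrays, and the complex is given in brackets. The 5 probes that rose stand at the top, the 11 that fell below them, and no probe overlaps between the groups.

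Complex V, the ATP synthase, had a median near 0. Of 21 probes for 16 genes, 2 rose (9.52%, against 16% of all tested probes) and none fell, and the median was -0.03, which became 0.02 under median scaling. Without adjustment, 2 were higher and 2 lower at *p* below 0.05 (9.52% each), against 22.7% and 21.6% of all tested probes. The F1 head was covered by 5 probes, none called. Atp5b, the catalytic beta subunit, measured 14.92, 14.91 and 14.95 with cel-239b and 14.91, 14.88 and 14.90 after miR-294. The difference was -0.03 with a 95% interval from -0.15 to 0.09. The alpha subunit Atp5a1 read 11.62, 11.56 and 11.64 against 11.16, 11.51 and 11.42, with all 3 miR-294 arrays lower. Its value of -0.25 was not called (adjusted *p* = 0.0813). The genes of the c ring, the rotor that carries the protons, were at -0.11 for Atp5g2 and 0.03 for Atp5g3, both with overlapping groups. Atp5f1 had the lowest value of the complex, -0.30 on probe 1400681 (adjusted *p* = 0.0758 from limma). Its other tested probes were at 0.07 and -0.09, and on each the groups overlapped. Atp5o was at 0.17 on probe 5820563, with all miR-294 arrays higher, and at -0.01 on probe 4540554, neither called.

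The 2 complex V probes that rose were for Atp5j and Atp5sl. Atp5j encodes coupling factor 6 of the stalk, and its dimmer probe 2060255 measured 8.02, 8.06 and 8.05 with cel-239b and 8.39, 8.23 and 8.43 with miR-294, a rise of 0.31 (standard error 0.07, adjusted *p* = 0.013 from limma). The brighter Atp5j probe 6860056 read 13.50, 13.48 and 13.46 against 13.56, 13.44 and 13.49. It was at 0.01 with a 95% interval from -0.12 to 0.15, so the rise was seen on the dimmer probe and not on the brighter one. Atp5sl, which despite its name is not a subunit of the synthase, measured 9.74, 9.86 and 9.75 against 10.10, 10.02 and 10.03 and rose by 0.27 (adjusted *p* = 0.0137).

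In all, 22 member genes had several tested probes. For 15 of them every probe lay on the same side of 0, and for 7 they lay on both sides. Of the 9 with at least 1 called probe, only Cox6a1 and Ndufa5 had every probe called. Taking the brightest probe of each gene left 2 genes that rose (2.7%), Atp5sl and Cycs, and 9 that fell (12.2%) among 74, against 16% and 16.3% of all tested probes, with a median of -0.06. A further 24 member probes were not tested, of which 23 were detected on no array and 1, for Cycs, on 1 array. Of these, 13 belonged to genes with another, tested probe, and 11 to the 9 genes that are not assessed here.

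The promoters of these genes were searched for the core sites of NRF1 and GABP, transcription factors known to act on many respiratory chain genes. The motifs were chosen after the expression values had been seen, and a match is only a description of the sequence. Windows from 250 bases before to 50 after annotated starts (RefSeq, GRCm38.p6) were at hand for 67 of the 83 genes. For Atp5j, on the minus strand, the sites printed below lie inside the gene, whose outermost start is at chr16:84835857. On either strand, CGCATGCG (NRF1, its own reverse complement) was found in at least 1 window of 10 of the 67 (14.9%) and of 2.07% of 27025 genes, and CCGGAAG (GABP) in 16 (23.9%) and 9.93%. Neither motif contains the other. Tested genes with and without NRF1 matches had medians of -0.04 (10 genes) and -0.07 (53 genes), and with and without GABP matches -0.04 (16 genes) and -0.09 (47 genes), by their brightest probe. Sites in genes with called probes follow in the direction of the gene, 5′ to 3′, with the match in capitals. A probe rose for Cycs, Sdhb and Atp5j, for the last 2 of these not the brightest one, and fell for Cox6a1, Cox6b1 and Ndufs8.
Cycs, NRF1, minus strand, chr6:50566603-50566650: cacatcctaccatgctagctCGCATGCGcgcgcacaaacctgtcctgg
Atp5j, NRF1, minus strand, chr16:84835096-84835143: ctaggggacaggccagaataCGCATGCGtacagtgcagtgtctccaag
Cox6a1, NRF1, minus strand, chr5:115349092-115349139: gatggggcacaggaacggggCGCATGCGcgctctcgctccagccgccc
Sdhb, GABP, plus strand, chr4:140961257-140961303: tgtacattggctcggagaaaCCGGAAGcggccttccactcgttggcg
Atp5j, GABP, minus strand, chr16:84835011-84835057: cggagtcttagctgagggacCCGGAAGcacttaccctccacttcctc
Cox6a1, GABP, minus strand, chr5:115348948-115348994: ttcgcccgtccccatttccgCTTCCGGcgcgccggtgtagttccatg
Cox6b1, GABP, minus strand, chr7:30626116-30626162: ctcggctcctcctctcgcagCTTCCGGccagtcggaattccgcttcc
Ndufs8, GABP, minus strand, chr19:3912733-3912779: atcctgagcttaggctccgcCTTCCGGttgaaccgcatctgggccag

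Related lists of energy metabolism were described in the same way, and their counts can be read against the 16% of all tested probes that rose and the 16.3% that fell. The subunits encoded by mitochondrial DNA had 7 tested probes, of which 2 fell (28.6%) and none rose, with a median of -0.16. Mt-atp6, a complex V subunit, went from 13.46 ± 0.05 in the control to 13.11 ± 0.15 after miR-294 (SD, n = 3 in each), and fell by 0.35 (adjusted *p* = 0.0174 from limma). The other was Mt-co2, a core subunit of complex IV, which fell by 0.27.

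Regulators of mitochondrial biogenesis were mostly on the other side of 0. Of 26 probes for 16 genes, 24 were above 0, 8 for 6 genes rose (30.8%) and 1 fell (3.85%), and the median was 0.15. Among those that rose were both probes of Tfam, the packaging and transcription factor of mitochondrial DNA, at 0.41 and 0.39. A probe of Gabpa, the DNA-binding subunit of GABP, rose by 0.43, while the second Gabpa probe, at 0.19, was not called. Peo1, the mitochondrial helicase Twinkle, had the largest rise, 0.49 on probe 6650008 (adjusted *p* = 0.00301 from limma), and Polg, the mitochondrial DNA polymerase, fell by 0.35 (adjusted *p* = 0.0124). The Nrf1 probe was at 0.04 and was not called.

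The remaining lists moved in both directions. Assembly factors, listed together with related mitochondrial genes such as Lrpprc and Oxa1l, had 6 rises (17.1%) and 2 falls (5.71%) among 35 probes (median 0.03). Foxred1, a complex I assembly factor, had 5 tested probes, at 0.14, 0.17, 0.23, 0.46 and 0.65, of which the last 2 rose. The probe at 0.65 was near background in the control, with detection on 1 of 3 cel-239b arrays, so its size is uncertain. Tmem126b, also an assembly factor of complex I, fell by 0.36. The tricarboxylic acid cycle and pyruvate dehydrogenase had 2 rises (8.7%) and 5 falls (21.7%) among 23 probes (median -0.13), with a rise of 0.38 for Pdha1 and a fall of 0.29 for Cs, citrate synthase. Other carriers and transporters had 1 rise (6.25%) and 2 falls (12.5%) among 16 probes. Dhodh, which feeds electrons from pyrimidine synthesis to ubiquinone, rose by 0.46. Etfa, of the electron transfer flavoprotein, fell by 0.19 on probe 6020576, while its other tested probes, at -0.11 and -0.12, were not called.

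Glycolysis held changes in both directions. Of 27 probes for 18 genes, 5 rose (18.5%) and 7 fell (25.9%). A size of 0.5 was exceeded by 4 probes for 3 genes (14.8%), namely Pdk1, Slc2a1 and Pfkm with 2 probes, beside 9.6% of all tested probes and 1 of 99 member probes. Pdk1, the kinase that restrains pyruvate dehydrogenase, went from 10.89 ± 0.06 to 10.18 ± 0.07 (SD, n = 3 in each group) and fell by 0.72 (adjusted *p* = 0.000387 from limma). Ldha, lactate dehydrogenase A, measured 12.60 ± 0.07 and 12.96 ± 0.11 and rose by 0.36 (adjusted *p* = 0.00993). The difference between these lists and the members was not tested.

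**Figure D5:**
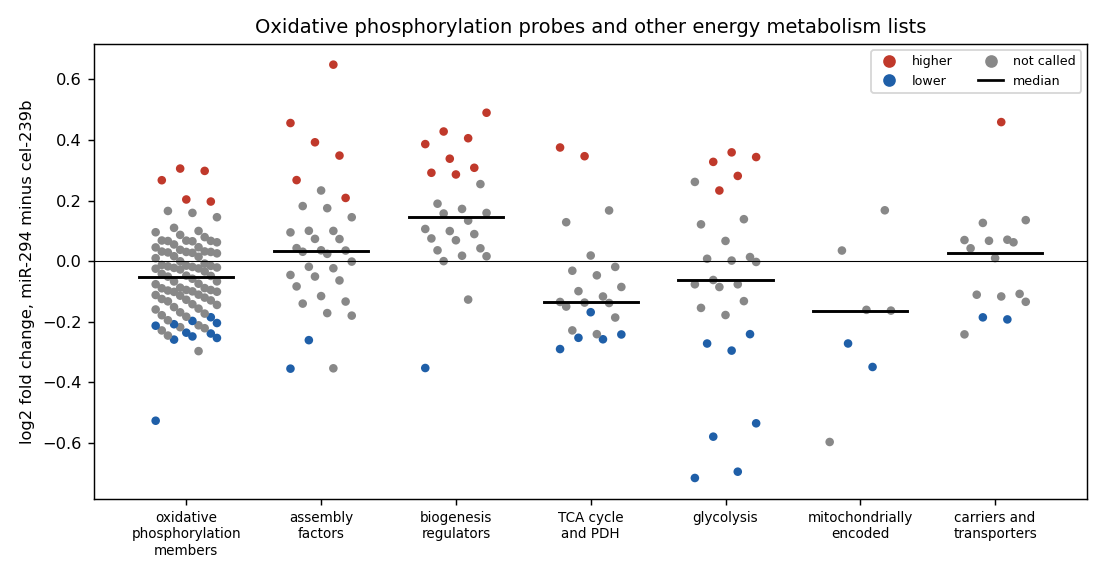
Log fold change (vertical axis, log2, miR-294 minus cel-239b) of each tested probe of oxidative phosphorylation members and of 6 other lists of energy metabolism. Points are probes, coloured where they rose or fell at an adjusted *p*-value below 0.05, and bars are medians, which run from -0.16 (mitochondrially encoded) to 0.15 (biogenesis regulators).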

How the data were processed

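RNA of 6 samples was hybridised to Illumina MouseWG-6 arrays. The authors deposited, from GenomeStudio 1.0.6 as the submitters' processing notes name it, the signal intensity of each probe as the mean over its beads, without normalization or background subtraction. The deposited columns also give bead standard deviations (intensity), bead numbers and a detection score (a fraction from 0 to 1). A further 24 columns were not used.

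In R 4.3.3 with limma 3.58.1, background was estimated by normexp from the detection *p*-values (1 minus the score), with an offset of 16, followed by quantile normalization and log2. Probes with a score above 0.99 on at least 3 arrays were fitted with 1 group term, taking 0.01 as the prior share of changed probes and Benjamini-Hochberg adjustment over all of them. With 3 samples per group, an exact permutation test (two-sided) cannot go below 0.1. In simulated data with 15334 probes, 93 of 100 changes of 0.5 and all 100 changes of 1 were recovered. Of 15134 unchanged probes in these data, 12 were called. Changes smaller than 0.5, the size of nearly all member changes, were not simulated. The simulation therefore does not show how many changes of that size would be missed among the uncalled members.

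The members, lists and rule for named probes (the largest rises and falls, isoform families, core subunits and genes whose probes differ) were chosen with earlier results of these data known. Names were matched to RefSeq (77 as symbols, 6 as synonyms). The values of 1 member gene are not reported here by name. The probe sequences were not used here, so cross-hybridisation to related copies was not assessed. As alternatives, background correction was left out, quantile normalization was replaced by median scaling or cyclic loess, and a variance-stabilizing transformation was used. Others were 3 detection filters, replicate number as a block, array weights, each array left out, 1 probe per gene and subunits only.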

Additional observations from a re-analysis of the deposited data

How the results depend on the processing

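The medians of all members and of complexes I, II and IV kept their sign in every setting, whereas those of complexes III and V turned positive under median scaling, and the counts of called probes moved with the processing. Median scaling gave a median of -0.0143 for the members, with 0 higher and 1 lower, and medians of -0.0272 for complex I, 0.0154 for complex III and 0.0188 for complex V. The variance-stabilizing transformation gave 27 lower, with 17.09% of all tested probes lower, and a complex IV median of -0.0874. With no detection filter, which brings in undetected probes, the members' median was -0.0386, with 3 higher and 6 lower of 123 (4.12% and 4.5% of all probes), and medians of 0.0732 for complex II and -0.078 for complex IV. With 1 probe per gene, 2 were higher. The replicate numbers are shared between the groups. Deviations of same-numbered arrays correlated at 0.14, -0.08 and 0.14, and those of differently numbered arrays ran from -0.20 to 0.08. With so few arrays these values cannot settle whether the number marks a pairing, and the main fit did not use it. With the replicate block, 2 members were higher and 9 lower (14.44% and 14.77% of all tested probes). Without single arrays, the members' median ran from -0.0702 to -0.0439, the higher count from 2 to 3, the lower count from 3 to 10 and the complex IV median from -0.1827 to -0.1115. No background correction, cyclic loess, array weights and the other detection filters gave 4 or 5 higher and 10 to 16 lower, with 14.69% to 17.91% and 14.91% to 17.56% of all tested probes. The cause of these differences was not tested. The 3 arrays per group limit the precision, and dim probes the most.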
